A study of Mus musculus with 8 samples.

Results

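A set of 10 genes of zinc handling was followed in the retina of mice lacking Lpcat1: the 4 metallothioneins Mt1, Mt2, Mt3 and Mt4, the zinc-sensing transcription factor Mtf1, the zinc exporters Slc30a1 and Slc30a3, and the zinc importers Slc39a10, Slc39a12 and Slc39a14. They were taken by name, as all noncontrol probes whose annotated transcript belongs to 1 of the 10 symbols, and the set was chosen by a measured value: the Mt1 and Mt2 signal was already known to be higher in these same knockout arrays. All 10 genes were on the array, as 13 probes of 55681, and 12 of these probes, covering all 10 genes, were well above background on every array of at least 1 genotype, as were 33972 probes in all. Because the genotype difference chose the genes, their own differences are given below as descriptions without a test.

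The data were 8 one-colour microarrays of whole retina, 4 from wildtype (WT) mice and 4 from mice with both copies of Lpcat1 disrupted (Lpcat1 KO). Lpcat1 is a lysophospholipid acyltransferase that makes dipalmitoyl phosphatidylcholine. All mice were 2 weeks old and of the C57BL/6 strain per the labels, and no treatment is given. In the study's methods the null allele is a whole-body knockout on a C57BL6/N background, crossed to C57BL6/J to remove the rd8 mutation of Crb1, and animals homozygous for rd8 were not used. Replicates are numbered 1 to 4 within each genotype. The labels do not say whether each came from a separate animal, so the errors below describe the spread between these samples.

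The level of a probe is the log2 of its background-corrected signal minus the log2 of the 75th percentile of the noncontrol spots on the same array, so that a level of 0 is the 75th percentile, and levels of different probes cannot be set against each other. All 8 arrays lay on 1 slide and were scanned at 1 time, with the 4 WT arrays in the upper slide row and the 4 Lpcat1 KO arrays in the lower, so slide row and genotype cannot be told apart. Within each row the replicate number is also the slide column. The Lpcat1 probe itself read −0.41 ± 0.03 (SD, n = 4) in WT and −0.87 ± 0.06 in Lpcat1 KO, or 72.5% of WT (limma adjusted p = 0.0036). No array went against its label, and the sources used here do not place this probe inside or outside the deleted part. All 12 rod and all 12 Müller glia markers examined were above background in the labelled tissue.

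Metallothioneins are small cysteine-rich proteins that bind zinc and copper. In the central nervous system Mt1 and Mt2 are known mainly from glia, Mt3 mainly from neurons, and Mt4 from stratified squamous epithelia. Free zinc in the cell is sensed by Mtf1, which binds metal response elements in the promoters of Mt1, Mt2 and Slc30a1 and raises their transcription, while Slc39a10 is known to be repressed by it. Slc30 proteins (ZnT) move zinc out of the cytosol and Slc39 proteins (ZIP) move it in. Mt1 and Mt2 are also induced by glucocorticoids, by cytokines acting through Stat3, and by oxidative stress.

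The promoters of Mt1, Mt2 and Slc30a1, the genes known to be raised through Mtf1, are shown to let the letters that Mtf1 is known to bind be read in place. Each window runs from 250 bases before to 50 bases after the start given by RefSeq in build GRCm38.p6, which need not be the start used in retina. Capitals mark matches to the core of the metal response element, searched as TGCACNC and TGCGCNC on both strands, and no matches overlapped in these windows.
Mt1, chr8:94178839-94179138, plus strand: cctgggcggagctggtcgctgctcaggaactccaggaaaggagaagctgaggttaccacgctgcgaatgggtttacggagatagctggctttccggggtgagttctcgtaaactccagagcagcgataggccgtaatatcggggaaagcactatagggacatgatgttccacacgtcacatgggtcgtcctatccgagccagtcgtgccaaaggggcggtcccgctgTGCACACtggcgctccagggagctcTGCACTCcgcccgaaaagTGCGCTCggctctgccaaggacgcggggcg
Mt2, chr8:94172368-94172667, plus strand: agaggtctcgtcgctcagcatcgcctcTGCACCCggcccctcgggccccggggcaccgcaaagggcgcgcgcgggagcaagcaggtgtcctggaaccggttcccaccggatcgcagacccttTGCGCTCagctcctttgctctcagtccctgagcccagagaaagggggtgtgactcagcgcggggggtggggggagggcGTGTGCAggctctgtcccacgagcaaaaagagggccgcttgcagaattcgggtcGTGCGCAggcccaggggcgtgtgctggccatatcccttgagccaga
Slc30a1, chr1:191906531-191906830, plus strand: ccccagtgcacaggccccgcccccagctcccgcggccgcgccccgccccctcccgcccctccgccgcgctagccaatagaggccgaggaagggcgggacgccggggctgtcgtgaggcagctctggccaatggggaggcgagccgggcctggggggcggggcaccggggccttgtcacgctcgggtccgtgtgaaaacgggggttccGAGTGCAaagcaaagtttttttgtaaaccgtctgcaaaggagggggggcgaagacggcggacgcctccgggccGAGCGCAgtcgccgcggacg

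Counted from base 1 at the 5′ end, the Mt1 window held 3 matches, at bases 228 to 234, 253 to 259 and 271 to 277, all on the gene's strand and all in the last part of the window. The Mt2 window held 4, at bases 28 to 34 and 123 to 129 on the gene's strand and at bases 201 to 207 and 255 to 261 on the opposite strand. The Slc30a1 window held 2, at bases 208 to 214 and 281 to 287, both on the opposite strand. Among all 32851 mouse promoter windows of 300 bases, 25.7% held at least 1 match, 7.11% at least 2, 1.97% at least 3 and 0.517% at least 4. Of the 10 genes, 9 had a window. The Mt3 window and the Mt4 window held 1 match each, and 1 of the 2 Slc30a3 windows held 1. None was found in the windows of Mtf1, Slc39a10 (2 windows) or Slc39a12. A match of these letters is a description of the sequence and not evidence that the factor binds there.

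**Figure D1:**
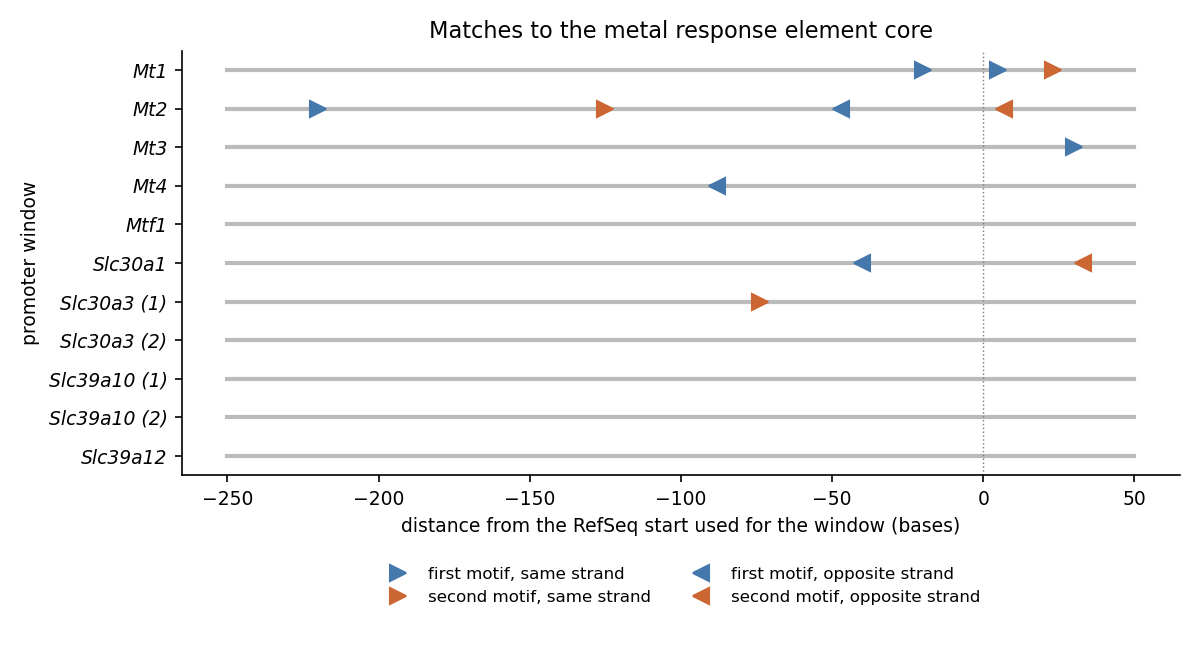
Matches to TGCACNC or TGCGCNC in the promoter windows of the genes with a window in RefSeq, drawn by distance in bases from the RefSeq start (horizontal axis), with 1 line per window, blue for TGCACNC, orange for TGCGCNC, and triangles pointing right for the gene's strand and left for the opposite strand. Mt2 has 4 matches, Mt1 has 3 and Slc30a1 has 2, while Mtf1, Slc39a10 and Slc39a12 have none.

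Mt1 and Mt2 were higher in every Lpcat1 KO array than in every WT array. Mt1 read 4.73, 4.66, 4.80 and 4.77 in WT replicates 1 to 4, and 5.37, 5.47, 5.27 and 5.48 in Lpcat1 KO replicates 1 to 4. The groups were separated by a gap of 0.48 between the highest WT and the lowest KO array, which is wider than the range within either genotype (0.14 in WT and 0.20 in KO). The means were 4.74 ± 0.06 (SD, n = 4) and 5.40 ± 0.10, a difference of 0.66 (SE 0.06) on the log2 scale or 1.58-fold.

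Mt2, the neighbouring gene with a closely related product, read 3.30, 3.31, 3.31 and 3.42 in WT and 4.04, 4.20, 3.90 and 4.21 in Lpcat1 KO. Here too the groups did not overlap, with a gap of 0.49. The means were 3.33 ± 0.05 (SD, n = 4) and 4.09 ± 0.15, a difference of 0.75 (SE 0.07) or 1.69-fold. Of the 33972 probes tested, 125 had a larger increase than Mt1 and 79 a larger increase than Mt2.

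The KO arrays varied together in these genes: for both, replicate 3 was lowest, followed by replicates 1, 2 and 4. The WT order differed between them, with replicate 3 highest for Mt1 and replicate 4 highest for Mt2. When each gene was expressed as deviations from its own mean over the 8 arrays, the Mt1 and Mt2 profiles differed by 0.0553 on average. The probe sequences are not used here, and how far the 2 probes bind each other's transcript was not tested.

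Mt3, which limits zinc in neurons, read 0.96, 0.94, 1.16 and 1.01 in WT and 1.00, 0.93, 1.03 and 1.10 in Lpcat1 KO. The arrays of the genotypes were interleaved, and both means were 1.02 (SD 0.10 in WT and 0.07 in KO, n = 4). The 95% interval of the KO minus WT difference ran from −0.14 to 0.14.

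Mt4, the epithelial form, had a dim probe that was well above background on 4 WT and 3 KO arrays. It read −4.26, −4.14, −4.27 and −4.61 in WT and −4.15, −4.50, −4.03 and −4.27 in Lpcat1 KO, a difference of 0.08 (SE 0.12) with overlapping groups. Its difference was −0.01 without WT replicate 4 and 0.17 without KO replicate 2. RefSeq places Mt4, Mt3, the long noncoding gene Gm39227, Mt2 and Mt1 in this order on chromosome 8.

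**Figure D2:**
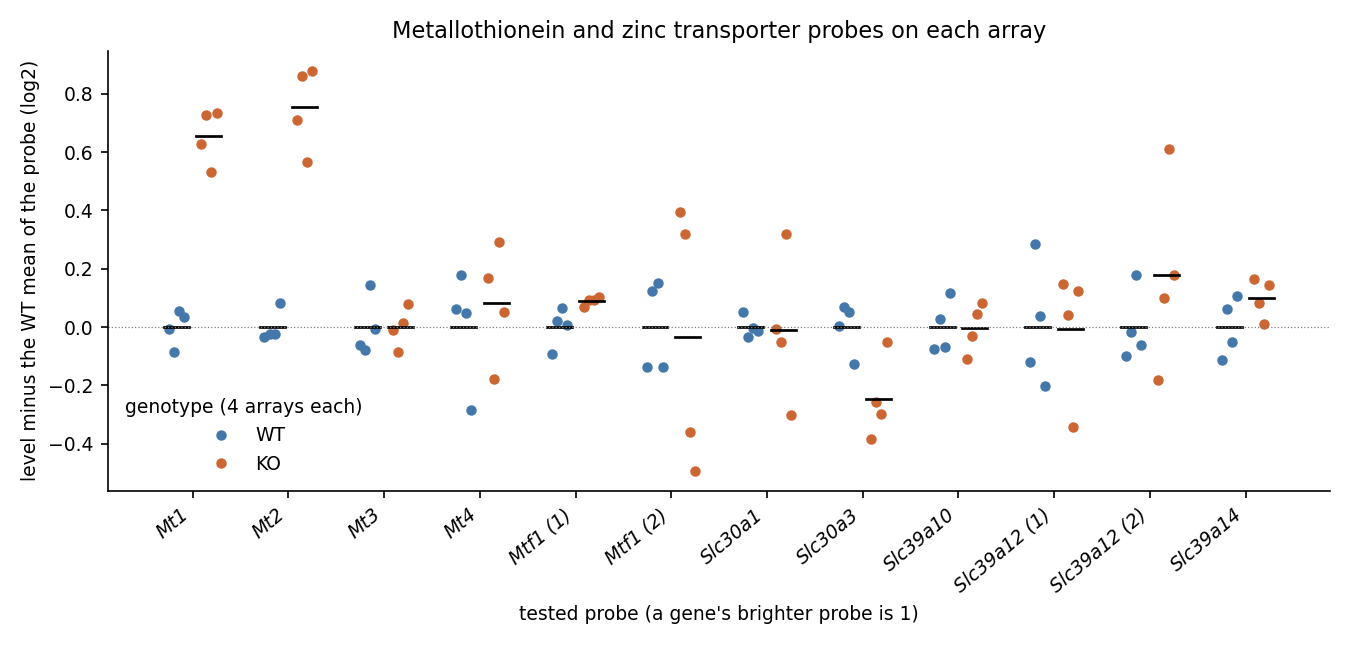
Level of each of the 12 tested probes on each array minus the WT mean of that probe (vertical axis, log2), with 4 WT points in blue, 4 Lpcat1 KO points in orange and a bar at each group's mean. The KO points lie above all WT points by 0.48 for Mt1 and 0.49 for Mt2, and the groups overlap for Mt3, Mt4 and all 5 transporters.

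None of the nearest genes on either side of the cluster was called higher. On the Mt4 side, the nearest genes with a tested probe gave differences of −0.13 (SE 0.07) for Bbs2, a subunit of the ciliary BBSome, −0.28 (SE 0.06) for the ribosomal prolyl hydroxylase Ogfod1, and −0.19 (SE 0.06) for the polyadenylation factor Nudt21. Of these Ogfod1 was called lower (limma adjusted p = 0.045), though its dimmer probe differed by 0.18 in the other direction, and the call was lost under most alternatives, among them the leaving out of any array but KO replicate 1. On the Mt1 side, the nuclear pore gene Nup93 differed by −0.09 (SE 0.05) and was not called. The next genes were too variable to place, since the endoplasmic reticulum stress gene Herpud1 had a WT SD of 0.63 and the immune gene Nlrc5 a KO SD of 1.19.

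Mtf1, the sensor itself, was measured by 3 probes that gave no common picture. Its brightest probe read 0.55, 0.67, 0.71 and 0.65 in WT and 0.71, 0.74, 0.74 and 0.75 in Lpcat1 KO. The groups did not overlap, but the lowest KO array was only 0.0026 above the highest WT array. The means were 0.65 ± 0.07 (SD, n = 4) and 0.74 ± 0.01, a difference of 0.09 (SE 0.04) or 1.06-fold, which was not called. A second, dim probe read −4.59, −4.32, −4.30 and −4.59 in WT and −4.05, −4.13, −4.81 and −4.94 in KO, with 2 KO arrays above and 2 below all WT arrays. The third probe was not well above background on any array.

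Slc30a1, the plasma membrane zinc exporter that Mtf1 is known to raise together with Mt1 and Mt2, was not higher in the KO mean. It read 0.80, 0.72, 0.75 and 0.74 in WT and 0.74, 0.70, 1.07 and 0.45 in Lpcat1 KO. The WT arrays lay within 0.08 of each other, while the KO arrays spanned 0.62, with replicate 3 highest and replicate 4 lowest. The means were 0.75 ± 0.04 (SD, n = 4) and 0.74 ± 0.25, and the 95% interval of the difference ran from −0.27 to 0.25. The difference was −0.12 without KO replicate 3 and 0.09 without KO replicate 4. The KO order of this gene was the reverse of the metallothioneins' at its ends, since replicate 3 was lowest and replicate 4 highest for Mt1 and Mt2.

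Slc30a3, which loads zinc into synaptic vesicles, was the member with the lowest KO minus WT difference. It read −2.79, −2.72, −2.74 and −2.92 in WT and −3.18, −3.05, −3.09 and −2.84 in Lpcat1 KO. Of the 4 KO arrays, 3 lay below all WT arrays, and replicate 4 lay within the WT range. The difference was −0.25 (SE 0.08), which was not called, and it stood at −0.13 with another background correction (normexp).

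The importers gave small differences. Slc39a10, known to be repressed when Mtf1 is active, read −0.13, −0.02, −0.12 and 0.07 in WT and −0.16, −0.08, −0.01 and 0.03 in Lpcat1 KO. These arrays were interleaved, and the 95% interval of the difference ran from −0.15 to 0.14. Slc39a14, which imports zinc, manganese and iron and is known to rise in the acute phase response, read −0.76, −0.58, −0.69 and −0.54 in WT and −0.48, −0.56, −0.63 and −0.50 in KO. Of the KO arrays, 2 lay above all WT arrays, and the difference was 0.10 (SE 0.06), with a 95% interval from −0.04 to 0.24. It was 0.06 without WT replicate 1 and 0.14 without WT replicate 4. Slc39a12, a zinc importer best known from brain, had 2 dim probes. The brighter read between −3.66 and −3.18 in WT and between −3.81 and −3.32 in KO, and the other between −3.87 and −3.59 in WT and between −3.95 and −3.16 in KO. Their differences were −0.01 (SE 0.14) and 0.18 (SE 0.15), both with overlapping groups. The latter rested on KO replicate 3, without which it was 0.033, while it was 0.30 without KO replicate 1 and 0.068 under normexp, and the former was 0.10 without KO replicate 3.

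**Figure D3:**
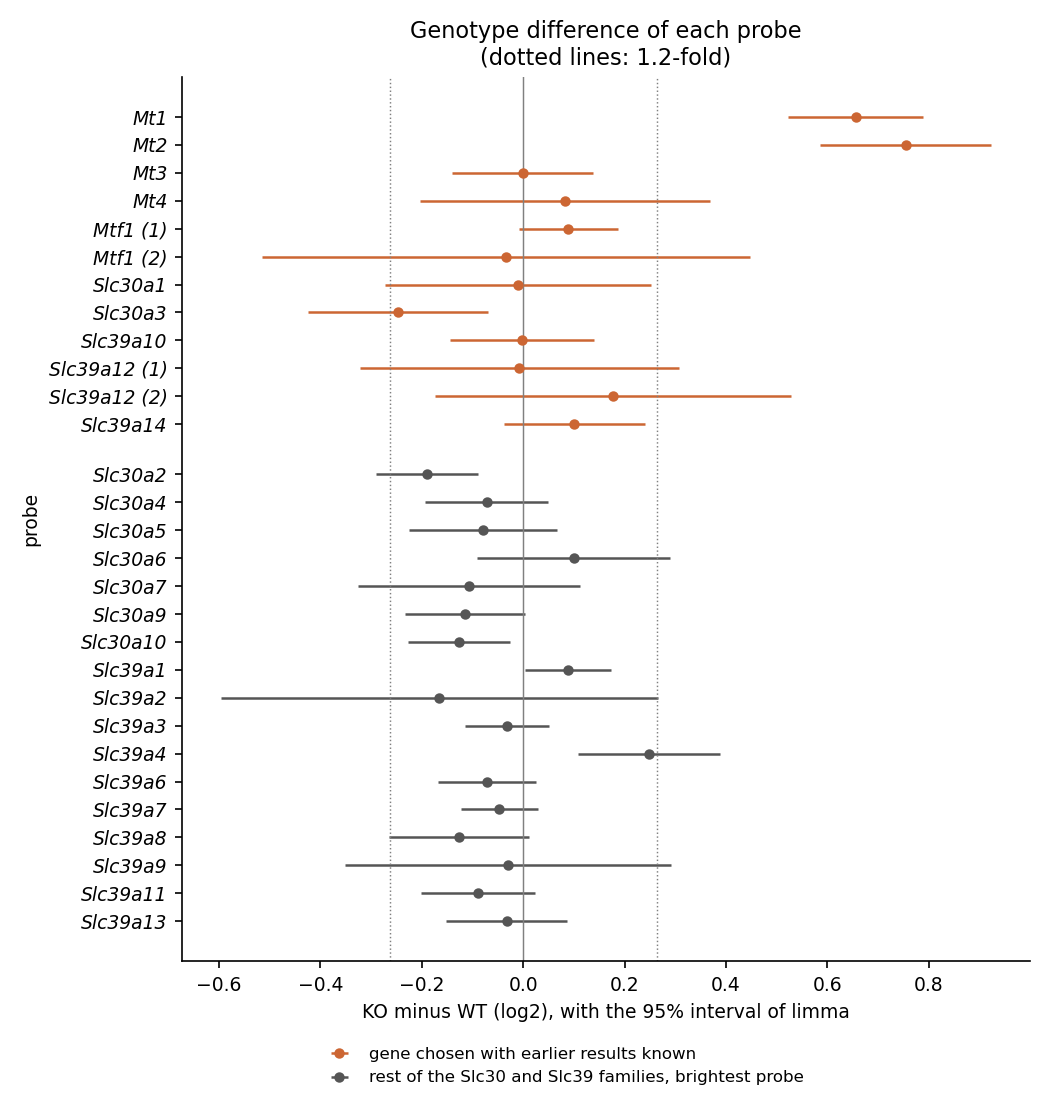
KO minus WT difference (horizontal axis, log2) with its 95% interval for each tested member probe and for the brightest probe of each other zinc transporter gene. Mt1 is at 0.66 and Mt2 at 0.75, and the other differences run from −0.25 to 0.25.

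A probe was called when its limma p, adjusted over all 33972 tested probes, was under 0.05 and its fold over 1.2, which held for 2.92% of them. Among the 10 genes, 2 had a called probe (Mt1 and Mt2, both higher), where 3.96% of the 14939 tested genes had 1 in either direction and 2.2% had 1 called higher. Nothing can be read from this count, since Mt1 and Mt2 chose the list. On 3 of the 12 member probes (Mt1, Mt2 and the brightest Mtf1 probe) the groups did not overlap and KO was higher, as on 6.05% of all tested probes. By brightest probe, 5 of the 10 differences were above 0 and 5 below, where 42.2% of all tested genes were above 0, and their median was 0.04 beside −0.02 over all tested genes. With the 75th percentile taken over detected probes, with quantile normalization or with cyclic loess, 9 of the 10 were above 0. The median ran from 0.016 (without WT replicate 4) to 0.092 (without WT replicate 2) when arrays were left out, and was −0.001 over the 9 genes well above background on all 8 arrays. In bulk tissue, fewer or more cells of a type and less or more RNA per cell cannot be told apart.

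The rest of the zinc transporter families, 19 genes that the rule did not name, showed no called change. Of the 17 genes with a tested probe, limma called 0, where 3.96% of all genes had a called probe, so that this count does not set the families apart. At an unadjusted p under 0.05 there were 4, where 29.4% of all genes had such a probe, and the methods' t-test with the same thresholds called 0. By brightest probe, 14 of the 17 differences were below 0 and 3 above, where 42.2% of all genes were above 0. With quantile normalization these counts were 12 and 5, and with cyclic loess 11 and 6. Their median was −0.07 with a range from −0.19 to 0.25. The median stayed below 0 under every alternative, between −0.08 and −0.04.

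Slc39a4 and Slc30a2 had the lowest adjusted p of these transporters, and they are named after their values were seen. Slc39a4, an importer best known for zinc uptake in the intestine, had a mean of −0.97 ± 0.03 (SD, n = 4) in WT and −0.72 ± 0.12 in Lpcat1 KO. Its groups did not overlap, as was so for 21.2% of all genes, and the difference was 0.25 (SE 0.06, limma adjusted p = 0.055). This gene passed both thresholds once KO replicate 1 was left out (0.28) and, at 0.27, with the percentile over detected probes. Slc30a2, a vesicular zinc transporter, read −3.13, −3.21, −3.04 and −3.09 in WT and −3.32, −3.31, −3.29 and −3.31 in KO. Its difference of −0.19 (SE 0.04, limma adjusted p = 0.047) was under the fold minimum and turned to 0.033 under normexp. Slc30a8, the zinc transporter of insulin granules, was not well above background on any array, and Slc39a5 was so on 1 WT array alone.

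Other genes reported to depend on Mtf1 showed no shared direction. Of Gclc, Ndrg1, Csrp1, Selenow, Selenoh and Pgf, limma called 0 of 6, with 3 at an unadjusted p under 0.05 and 0 by the methods' t-test, where 3.96% and 29.4% of all genes were called or had such a p. Of the 6, 3 lay above 0 and 3 below. Ndrg1, a stress-responsive gene, at −0.24 (SE 0.04) and the muscle LIM-family gene Csrp1 at 0.24 (SE 0.05) passed the adjusted p but not the fold minimum, and are named after their values were seen.

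The lists of copper and iron, other metals that metallothioneins or these importers carry, held no called gene, a count near the 3.96% of all genes. For copper, limma called 0 of 13 tested genes (4 at an unadjusted p under 0.05, beside 29.4% of all genes, and 0 by the methods' t-test), with a median of −0.02. The copper chaperone Ccs at −0.18 (SE 0.04) and the copper-export gene Commd1 at −0.17 (SE 0.04) passed the adjusted p but not the fold minimum. The mitochondrial copper chaperone Cox17 was not above background. For iron, limma called 0 of 16 (7 at an unadjusted p under 0.05, beside the same 29.4%, and 0 by the methods' t-test), with a median of −0.00. The ferroxidase Cp at 0.26 (SE 0.05), and 1 dimmer probe of the transferrin receptor Tfrc at −0.20 (SE 0.04, −0.05 on its brightest), passed the adjusted p but not the fold minimum. Transferrin (Trf) at 0.37 (SE 0.11) passed the fold alone, as did, in the lower direction, the dimmest Tfrc probe at −0.36 (SE 0.09) and Hfe at −0.31 (SE 0.14). These genes too are named after their values were seen. The medians of the Mtf1, copper and iron lists changed sign with the scaling and lay between −0.06 and 0.04 in all settings.

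Lists of the other known inducers of Mt1 and Mt2 held called genes. Of 15 tested glucocorticoid targets, 5 were called higher and 0 lower, where 2.2% and 1.77% of all genes were. Among them were the transcription factor Klf15 at 0.66 (SE 0.08) and the kinase Sgk1 at 0.54 (SE 0.07), while the actin-associated gene Fam107a was called on its dimmer probe at 1.33 (SE 0.19) but differed by 0.07 (SE 0.12) on its brighter one. With the replicate number as a block Klf15 and Sgk1 were not called, and under normexp Klf15 stood at 0.42 and Fam107a at 0.81. By brightest probe 14 of the 15 were above 0 and 1 below. Sult1a1 was called on its dimmer probe alone, at 0.29 (SE 0.06), and stood at 0.21 (SE 0.09) on its brighter one. Among targets not called, Fkbp5 differed by 0.03 (SE 0.06) and Tsc22d3 by 0.04 (SE 0.04). Lcn2 differed by −0.23 (SE 0.06), with every KO array below every WT array. These genes are named after their values were seen. No test was made of whether the list as a whole differed from other genes.

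Of 12 tested genes of the Stat3 and acute phase list, 4 were called higher and 0 lower, beside 2.2% and 1.77% of all genes. These were the transcription factors Cebpd at 0.90 (SE 0.08) and Cebpb at 0.54 (SE 0.04), the oncostatin M receptor Osmr at 0.41 (SE 0.06) and Stat3 itself at 0.38 (SE 0.05). By brightest probe 10 of the 12 were above 0 and 2 below. Among those not called, Socs3 differed by 0.17 (SE 0.07) with overlapping groups, and Pim1 by 0.04 (SE 0.08). The 2 below 0 were Serpina3n at −0.19 (SE 0.21) and Lifr at −0.07 (SE 0.04). These genes are named after their values were seen. The cytokine Lif was not above background. Of 14 tested Nfe2l2 (NRF2) targets of the oxidative stress response, only the glutathione transferase Mgst1 was called (3.96% of all genes were), at 0.31 (SE 0.05), though not under normexp or with the block, and the cystine transporter Slc7a11 was not above background. The list medians were 0.14 for glucocorticoid targets, 0.29 for the Stat3 list and 0.11 for NRF2 targets, beside −0.02 for all genes, and each stayed above 0 in every setting. Glul stands in both the glucocorticoid and the Müller glia lists, Hmox1 in the iron and NRF2 lists, and Gclc in the Mtf1 and NRF2 lists.

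**Figure D4:**
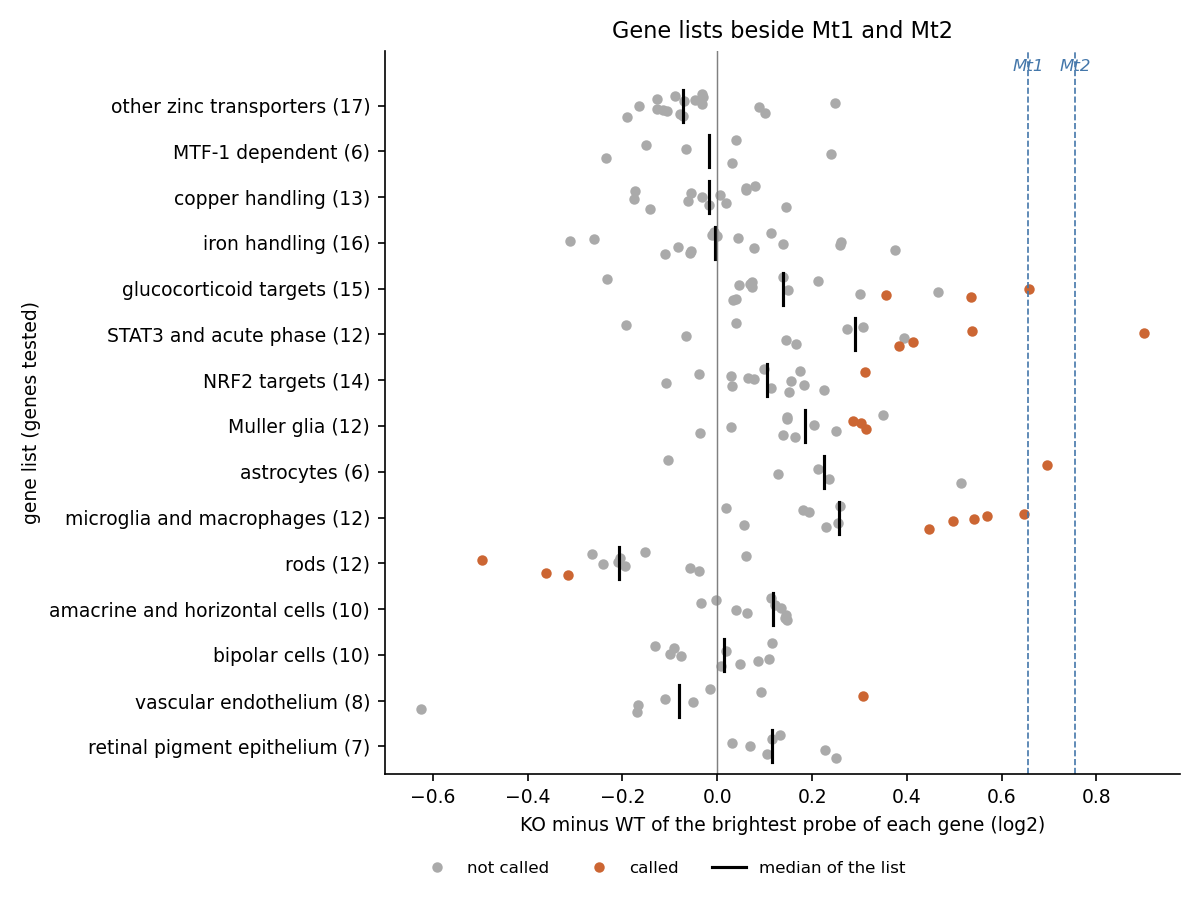
KO minus WT difference of each gene (horizontal axis, log2, brightest probe) in the lists of metal handling, of inducers and of cell type markers, with genes called on that probe in orange, a bar at each list's median, and the Mt1 and Mt2 values as dashed lines. The rest of the zinc transporters, the Mtf1 list and the copper and iron lists hold no called gene, while the glucocorticoid, Stat3, Müller glia and microglia lists hold 3, 4, 3 and 5 called on their brightest probe.

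Some glial markers were called higher in Lpcat1 KO. Of 12 Müller glia markers, 3 were called higher, where 2.2% of all genes were: the potassium channel Kcnj10 at 0.31 (SE 0.05), clusterin (Clu) at 0.30 (SE 0.04) and Apoe at 0.29 (SE 0.04). The call of Kcnj10 was lost without KO replicate 2 and that of Clu without WT replicate 2, and both were lost with the block. With cyclic loess or quantile normalization 6 markers were called, and with the percentile over detected probes 5. By brightest probe 11 of the 12 markers were above 0, with a median of 0.18, and the groups did not overlap and KO was higher for 9, where 21.2% of all genes did not overlap in either direction. The summed linear level of the list, in units of the array's 75th percentile signal, lay between 355 and 375 on the WT arrays and between 424 and 434 on the Lpcat1 KO arrays, and no marker was below background. Such a sum follows its brightest probes, and without Clu and Apoe it lay between 166 and 172 in WT and between 187 and 192 in KO, a choice made after seeing the data. Of 6 astrocyte markers, 1 was called higher, beside the same 2.2%, the growth factor binding protein Igfbp3 at 0.69 (SE 0.10), which stood at 0.37 under normexp and was not called without WT replicate 2. By brightest probe 5 of the 6 were above 0 and 1 below, Fgfr3 at −0.10 (SE 0.15). Gfap was not called, at 0.51 (SE 0.20) on its brighter tested probe and 0.52 (SE 0.15) on the dimmer, both with overlapping groups. Fgfr3 and Gfap are named after their values were seen. The list summed to between 5.88 and 7.02 in WT and between 7.59 and 7.77 in KO.

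Of 12 microglia and macrophage markers, 5 were called higher, where 2.2% of all genes were, among them Tyrobp at 0.65 (SE 0.06), C1qc at 0.57 (SE 0.06) and C1qb at 0.54 (SE 0.06). By brightest probe all 12 were above 0, with a median of 0.26, and for 10 the groups did not overlap, as for 21.2% of all genes. Their summed level lay between 31.6 and 39.3 in WT and between 35.1 and 41.4 in KO, but most of it came from 1 probe of Itgam, whose other probes were dim. Without Itgam, left out after seeing the data, it lay between 13.4 and 14.4 in WT and between 16.9 and 17.6 in KO. Of 12 rod markers, 4 were called lower, where 1.77% of all genes were, and 0 higher, among them the transcription factor Nr2e3 at −0.50 (SE 0.08) and arrestin (Sag) at −0.36 (SE 0.04). Nr2e3 lost its call with the block and in 7 of the 8 fits that left out an array, all but that without KO replicate 1, and Sag stood at −0.22 and was not called under quantile normalization, where 1 rod marker was called, against 2 with cyclic loess. The summed level of the rod list lay between 2139 and 2211 in WT and between 1787 and 1945 in KO. The part of these shifts in the Mt1 and Mt2 difference was not tested.

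The remaining cell type lists held 1 called gene among them. Limma called 0 of 10 amacrine and horizontal cell markers (5 at an unadjusted p under 0.05), 0 of 10 bipolar cell markers (3) and 0 of 7 pigment epithelium markers (1), and the methods' t-test called 0 in each. Over all genes 3.96% were called and 29.4% had such a p, so the counts called lie near the background. By brightest probe, 8 of the 10 amacrine and horizontal markers were above 0 (median 0.12), beside 42.2% of all genes. The groups did not overlap and KO was higher for 4 of them, and all 5 at the unadjusted p were higher. For bipolar cells 6 of 10 were above 0 (median 0.01), and for pigment epithelium 7 of 7 (median 0.12). Medians of 0.12 are near the 0.11 of the NRF2 list. Summed levels for amacrine and horizontal cells lay between 137 and 140 in WT and between 147 and 150 in KO. For bipolar cells the WT sums ran from 323 to 355 and the KO sums from 330 to 349, and for pigment epithelium from 15.4 to 19.2 and from 15.9 to 20.3. Of 8 endothelial markers the vascular growth factor receptor Flt1 was called, at 0.31 (SE 0.05), a call lost in 6 of the 8 fits that left out an array, all but those without KO replicate 1 and without WT replicate 2. By brightest probe 6 of the 8 were below 0 and 2 above, with a median of −0.08 and a range from −0.63 to 0.31. The groups did not overlap for 2 markers lower in KO and for 1 higher. The list summed to between 24.2 and 24.9 in WT and between 23.2 and 24.7 in KO.

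The named genes whose profile over the 8 arrays was nearest to the mean of Mt1 and Mt2 were Atf3, Loxl4, Klf15, Pvalb and Rnf145. Likeness was measured as the mean absolute difference between profiles, each taken as deviations from its own mean, and the nearness to Mt1 and Mt2 chose these genes, so their differences have no test here. The distances were 0.0630 for the stress-induced transcription factor Atf3, 0.0639 for the lysyl oxidase family gene Loxl4, 0.0686 for Klf15, 0.0777 for the calcium buffer Pvalb and 0.0792 for the ubiquitin ligase Rnf145. Mt1 and Mt2 each lay 0.0276 from their own mean, and the median distance over all named probes was 0.367. Atf3 read −1.45, −1.41, −1.48 and −1.40 in WT and −0.79, −0.53, −0.77 and −0.67 in Lpcat1 KO, with a gap between the groups as for Mt1 and Mt2. No zinc transporter was among them, and Slc30a1 lay at 0.389 and Mtf1 at 0.308 by its brightest probe. Such a distance follows mainly the size of the genotype difference, and Mt3, with like means in both genotypes, lay at 0.353. The distances of the transporters therefore restate their small differences and add no separate result.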

How the data were processed

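Total RNA of whole retina was labelled with Cy3 and hybridised to Agilent 8-array mouse slides (array design of build mm9 per the file headers). The authors scanned the slides and extracted intensity values with Agilent Feature Extraction 10.7.1.1, which subtracts the background. The deposited files hold this processed intensity for every spot, and a table of log2 values that the authors shifted by the 75th percentile. That table differed from the levels computed here by 1 constant per array (0.12 to 0.15 log2), and its scale and direction therefore matched.

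Here each array's log2 processed intensity was reduced by the log2 of its 75th percentile over 59305 noncontrol spots. Spots marked as outliers (86 to 147 per array) were left out and spots of 1 probe averaged. No spot was saturated, and 33110 to 36366 probes per array were well above background. The small number of arrays limits the precision. Probes well above background on all 4 arrays of either genotype were tested (33972) with limma 3.58.1 in R 4.3.3, 4 against 4 without covariates, after a test on simulated data, and p-values were adjusted by the Benjamini-Hochberg method. SE and 95% intervals are from this fit. Gene symbols came from RefSeq through the annotated transcript (26413 of 55681 probes), and a gene's value is that of its brightest tested probe. Promoter windows are RefSeq's.

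The members and the 15 gene lists were chosen with earlier results of these data known. Named genes are all members, up to 3 called genes with the largest difference per list, the 5 nearest profiles, 3 neighbours on either side of the Mt cluster, and Lpcat1. Genes named outside this rule are marked as such, or illustrate a list. The value of 1 gene of the rod list is not reported here. Alternatives were the authors' values, a median shift, the percentile over detected probes, quantile and cyclic loess normalization, normexp on the median signals, other filters and folds, outlier spots kept, a trended robust fit, the methods' t-test, the replicate number as a block, and each array left out. In the files, 0 columns of values belonged to other samples.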

Additional observations from a re-analysis of the deposited data

Results flagged for a closer look

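In 3 groups of 4 arrays 1 array stood apart from the others, by a gap that made up most of the group's range. Mt2 read 3.42 in WT replicate 4, where the nearest WT array read 3.31. This array still lies below every Lpcat1 KO array. Igfbp3 read −2.84 in KO replicate 4, where the nearest KO array read −3.11. Herpud1, a neighbour of the metallothionein cluster, read 3.34 in WT replicate 2, where the nearest WT array read 2.13. In all 86 groups were examined, and chance alone marks about 5% of them.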

How the results depend on the processing

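The Mt1 and Mt2 differences, which chose the set and are a description, ran from 0.66 to 0.73 and from 0.75 to 0.80, and from 0.63 to 0.70 and 0.71 to 0.82 when arrays were left out one by one. None of the other members was called in any of these. The number of called probes over the array went from 992 to 138 with a fold minimum of 1.5, 246 with no filter on dim probes, 1869 with no fold minimum, and 391 (without WT replicate 2) to 1182 (without KO replicate 1) when each array was left out. Called probes were 470 higher and 522 lower (47.4% higher), against 563 and 372 (60.2%) with the percentile over detected probes, 526 and 386 (57.7%) with quantile normalization and 624 and 339 (64.8%) with cyclic loess. The count of other zinc transporters called went from 0 to 1 with the percentile over detected probes and with no fold minimum, and from 0 to 1 when each array was left out (1 without KO replicate 1, where Slc39a4 passed). Genes called went from 5 to 3 for microglia without KO replicate 3, KO replicate 4 or WT replicate 3, from 4 to 2 for rods without any array but KO replicates 1 and 3, from 3 for Müller glia to 5 without KO replicate 1 and 2 without KO replicate 2 or WT replicate 2, and, without KO replicate 1, from 0 to 2 for iron and 0 to 1 for Mtf1. Leaving out arrays moved the glucocorticoid count from 5 to 4 at most and the Stat3 count, 4, not at all, while the block took the glucocorticoid count to 2, rods to 2, Müller glia to 1 and NRF2 to 0. With the replicate number as a block 395 probes were called. Deviations of same-numbered arrays correlated at 0.25, 0.07, 0.04 and 0.11, and the main fit did not take the numbers as pairs. Every array but WT replicate 3 correlated best with the array of its own number. WT replicate 3 correlated at 0.05 with KO replicate 4 and at 0.04 with KO replicate 3. As the number is also the slide column, the block stands for slide position too. Slc30a2 reversed to 0.033 under normexp, and Herpud1, at −0.05 with all arrays, ran from −0.17 to 0.27 (without WT replicate 2) when arrays were left out. The causes of these moves were not tested. Mt4 and the dimmer Mtf1 probe were not well above background on every KO array. The Slc39a12 probes were dim but well above background on all 4 arrays of each genotype. For all of these only large differences were measurable.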
